A study of Mus musculus with 16 samples.

Results

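The genes described here are 39 genes of cell division, measured in the bone beneath the joint cartilage of mice after knee surgery. They were chosen by name from textbook knowledge of the cell cycle, 17 for S phase and the step into it and 22 for mitosis. Earlier results of these data were known when they were chosen, so counts over the set are descriptions. They were found by gene symbol in the array's annotation. All 39 were on the array, with 71 probes between them (22 genes with 1 probe, 17 with several), and all 39 passed the filter on dim probes, out of 28250 genes tested. A gene with several probes was represented by the one with the highest mean signal. The representative probe of each of the 39 genes was well above background on all 16 arrays and none was saturated, while some other probes of these genes and of the lists below were dimmer.

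The study asked how subchondral bone responds to surgically induced osteoarthritis. Male wild-type C57BL6 mice, 10 to 12 weeks old at surgery, had both knees operated on and were killed 6 weeks or 1 week later. The 4 groups of 4 arrays were DMM at 6 weeks, sham at 6 weeks, DMM at 1 week and sham at 1 week. In DMM (destabilization of the medial meniscus) the ligament that holds the medial meniscus to the tibia was cut, which makes the joint unstable, and in sham knees that ligament was shown but left whole. The sham mice thus had the same opening of both joints, and no group was without surgery. Mice of the 6 week groups were also older when killed, so age and time after surgery cannot be told apart here. Mice were allocated to groups at random, and 1 joint of each mouse went to the arrays. The tibial epiphyses were decalcified in EDTA, and subchondral bone was cut by laser from 10 µm frozen sections, so each array holds a mixture of the cells in that bone and its marrow spaces. From each sample 100 ng of total RNA was labelled with Cy3 and hybridised to a 1-colour Agilent array. Levels below are log2 signals relative to the 75th percentile of their array, so a value of 0 lies at that percentile, and differences are log2 differences.

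Before a cell divides it copies its DNA and then separates the copies. In late G1 the cyclin E kinase and the transcription factor E2F1 switch on genes for S phase: the factors that license origins, the MCM helicase that unwinds DNA, and the enzymes that make deoxynucleotides. The genes for mitosis, among them cyclin B and its kinase CDK1, are transcribed later, in G2, through CHR elements and CCAAT boxes bound by the MuvB complexes and NF-Y. In bone the blood-forming cells of the marrow divide throughout life, while osteocytes, the cells within the mineral, do not divide.

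Across the set the promoters hold both kinds of element, but a single promoter need not hold either. The RefSeq promoter table (assembly GRCm38.p6, 250 bases before to 50 after each start) holds 34 of the 39 genes, and Mcm4, Ccne2, Tpx2, Ccna2 and Aurkb had no entry. On both strands, the E2F motif letters TTTCCCGC, TTTCGCGC, TTTGCCGC or TTTGGCGC occurred in 6 of 15 S phase promoters (40.0%) and 1 of 19 mitosis promoters (5.26%), against 2.32% of all 27025 gene promoters. The CHR letters TTTGAA or TTCGAA occurred in 3 of 15 S phase promoters (20.0%) and 15 of 19 mitosis promoters (78.9%), against 19.4% of all. CCAAT occurred in 9 of 15 (60.0%) and 17 of 19 (89.5%), against 37.9% of all, and CHR together with CCAAT in 3 of 15 and 15 of 19, against 7.7% of all. The promoters of Ccne1, E2f1, Tk1, Tyms, Birc5 and Nusap1 held no match to any of these motifs. The matches are letters in a window and not measured binding. Below are the 250 bases before the start of 4 genes, all on the minus strand, with the matches in capitals. They are the gene with the brightest probe and the gene with the widest range over the arrays, of those with an entry, for S phase (Mcm6 at chr1:128359706-128359955 and Pcna at chr2:132253181-132253430) and for mitosis (Mki67 at chr7:135716380-135716629 and Cdk1 at chr10:69352913-69353162).
Mcm6: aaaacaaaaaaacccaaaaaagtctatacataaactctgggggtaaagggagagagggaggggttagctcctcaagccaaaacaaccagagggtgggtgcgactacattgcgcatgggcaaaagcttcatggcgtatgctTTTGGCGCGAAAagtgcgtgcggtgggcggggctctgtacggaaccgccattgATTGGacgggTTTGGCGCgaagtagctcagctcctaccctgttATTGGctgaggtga
Pcna: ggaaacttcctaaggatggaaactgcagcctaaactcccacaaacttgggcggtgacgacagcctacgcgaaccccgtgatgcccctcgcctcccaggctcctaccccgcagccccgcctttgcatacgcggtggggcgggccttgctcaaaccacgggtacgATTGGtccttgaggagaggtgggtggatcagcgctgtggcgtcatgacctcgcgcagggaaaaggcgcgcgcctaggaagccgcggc
Mki67: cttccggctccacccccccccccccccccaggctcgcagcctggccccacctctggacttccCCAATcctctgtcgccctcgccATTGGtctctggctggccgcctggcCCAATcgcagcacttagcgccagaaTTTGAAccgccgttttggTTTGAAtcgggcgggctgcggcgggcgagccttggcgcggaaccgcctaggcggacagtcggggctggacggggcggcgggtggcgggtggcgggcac
Cdk1: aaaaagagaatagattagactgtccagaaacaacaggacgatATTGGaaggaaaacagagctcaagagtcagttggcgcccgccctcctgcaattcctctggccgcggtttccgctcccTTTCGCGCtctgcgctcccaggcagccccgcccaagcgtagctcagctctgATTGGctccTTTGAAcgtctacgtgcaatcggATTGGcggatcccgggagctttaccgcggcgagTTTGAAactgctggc
The Mcm6 promoter holds 3 E2F matches, of which those 110 to 103 and 106 to 99 bases before the start overlap on opposite strands, and 2 CCAAT boxes. Pcna has a single CCAAT box, read on the opposite strand 87 to 83 bases before the start, and no match to the E2F letters in this window. Mki67 and Cdk1 hold 2 CHR matches each, at 116 to 111 and 98 to 93 bases in Mki67 and at 71 to 66 and 15 to 10 bases in Cdk1, with 3 CCAAT boxes each. Cdk1, the kinase of mitosis, is also the 1 mitosis gene of the 19 with an E2F match.

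Markers of bone and of marrow were both measurable. Bglap and Col1a1 (osteoblast and bone matrix), Dmp1 and Mepe (osteocyte) and Acp5 and Ctsk (osteoclast) were well above background on all 16 arrays. So were the marrow markers Hba-a1 and Alas2 (red cell precursors) and Mpo and Camp (neutrophil precursors). The same held for Col2a1 and Acan (chondrocyte), Adipoq (adipocyte) and Acta1 and Mylpf (skeletal muscle). Other markers of these lists were dimmer: Myh4 and Ckm (skeletal muscle) were well above background on 4 and 5 arrays, and Matn3 (chondrocyte) on 10. Being above background thus does not set bone apart from other tissue, and the tissue label was not tested. The 75th percentile of signal ran from 329 to 873 over the arrays, and the share of probes well above background from 65.2% to 79.5%. The lowest signal, 329 against a next lowest of 471, belonged to sham replicate 2 at 6 weeks, and this array stands apart below. The arrays lay on 2 slides of 8, with replicates 1 and 2 of each group on slide 1 and replicates 3 and 4 on slide 2, so each comparison can be made within each slide. By the labels each array stands for 1 joint of a mouse, so replicates are mice.

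The heat map of the 39 genes gives each gene's level on every array relative to its own mean. The representative probes lie, in mm9, at chr7:142881591-142881650 for Mki67, chr10:68805423-68807832 for Cdk1, chr2:132075420-132075557 for Pcna, chr11:98782801-98782860 for Cdc6 and chr11:117716959-117717018 for Birc5, per the file headers' annotation, and their place in exons or UTRs was not determined here. Levels are given here for each probe, and they do not rank the genes, since probes differ in brightness. Among S phase genes the helicase subunits averaged 5.43 (Mcm6), 4.73 (Mcm7), 4.16 (Mcm3), 3.92 (Mcm4), 3.64 (Mcm5) and 2.28 (Mcm2) over the 16 arrays. Cdc45, their partner in the helicase, averaged -0.41. The enzymes of deoxynucleotide synthesis averaged 5.37 and 3.50 (Rrm2 and Rrm1, the subunits of ribonucleotide reductase), 3.48 (Tk1, thymidine kinase) and 3.17 (Tyms, thymidylate synthase). The sliding clamp Pcna averaged 4.92, the origin licensing factors Cdt1 and Cdc6 averaged 3.16 and 2.46, the E cyclins Ccne1 and Ccne2 averaged 3.30 and -2.26, and E2f1 averaged 1.53. All 17 were thus measurable in this bone, and Ccne2 was the only gene of the 17 whose probe lay more than 1 log2 unit below the 75th percentile on average.

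**Figure D1:**
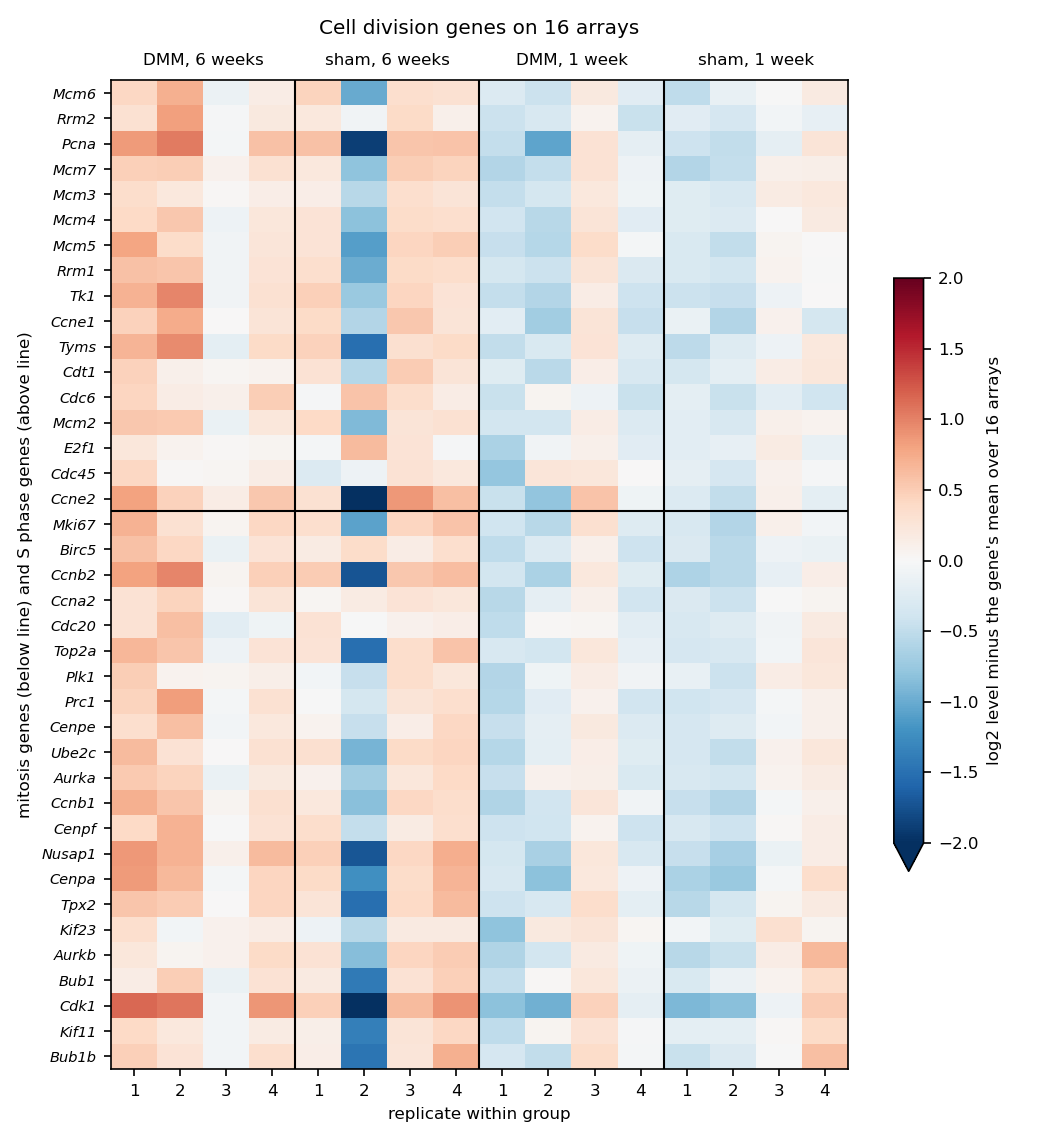
Heat map of the 39 genes (rows, S phase genes above the line and mitosis genes below it, each ordered by mean level) on the 16 arrays (columns, by group and replicate). Colour is the log2 level minus the gene's mean over the 16 arrays, limited to 2 in either direction; sham replicate 2 at 6 weeks is the lowest array for 27 of the 39 genes.

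Among mitosis genes the proliferation antigen Mki67 averaged 5.79 and the topoisomerase Top2a, which untangles the sister chromatids, 3.89. The mitotic kinase and its cyclins averaged 0.66 (Cdk1), 2.80 (Ccnb1), 4.28 (Ccnb2) and 4.03 (Ccna2), and the other mitotic kinases 3.72 (Plk1), 3.41 (Aurka) and 0.89 (Aurkb). Cdc20 and Ube2c, which trigger anaphase through the anaphase-promoting complex, averaged 3.99 and 3.52. Birc5 (survivin, a partner of Aurora B at the centromere) averaged 5.69, the centromere proteins Cenpe, Cenpf and Cenpa 3.55, 2.40 and 2.02, and the checkpoint kinases Bub1 and Bub1b 0.70 and 0.33. The spindle genes averaged 3.69 (Prc1, which bundles midzone microtubules), 2.39 (Nusap1), 1.87 (Tpx2), 1.11 (Kif23) and 0.42 (Kif11, the motor that separates the poles). All 22 were measurable, and none of them averaged below the 75th percentile of its arrays.

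The 39 genes varied together from array to array. The mean of the 17 S phase genes and the mean of the 22 mitosis genes correlated across the 16 arrays with Pearson's r = 0.97, and with r = 0.97 over 15 arrays without sham replicate 2 at 6 weeks; these points share their arrays, so the value is a description. Each gene's correlation with the mean of the other genes ran from 0.12 (E2f1) and 0.27 (Cdc6) to 0.98 over 16 arrays, and from 0.53 (Kif23) and 0.62 (Cdc45) to 0.98 (Ccnb1) over the 15. The median range of a gene from its lowest to its highest array was 1.42 for S phase genes and 1.55 for mitosis genes, and 1.19 and 1.17 without sham replicate 2 at 6 weeks. DMM replicates 1 and 2 at 6 weeks were the highest arrays for 16 and 14 of the 39 genes, and DMM replicate 1 at 1 week was the lowest for 8.

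Sham replicate 2 at 6 weeks was low across nearly the whole set. It lay below all 3 other sham arrays of 6 weeks for 34 of the 39 genes (87.2%; 14 of 17 S phase genes and 20 of 22 mitosis genes), while 38.9% of all genes did so. Its median deviation from the mean of those 3 arrays was -1.18 over the 39 genes and 0.20 over all genes. The furthest below were Cdk1 (-2.88), Ccne2 (-2.70), Pcna (-2.46), Ccnb2 (-2.28) and Nusap1 (-2.25), and the 3 genes above all of the other 3 arrays were E2f1 (0.57), Cdc6 (0.41) and Birc5 (0.15). On the same array the mean of the erythroid marker list deviated by -1.70, that of the macrophage list by -1.21 and the B cell list by -0.83. The other blood lists moved little, by -0.20 (neutrophil), -0.17 (megakaryocyte) and -0.07 (T and NK cell). The adipocyte, osteocyte and fibroblast lists deviated by -1.16, -0.92 and -0.47, and the skeletal muscle and endothelium lists by -0.84 and -0.35. The osteoblast, osteoclast and chondrocyte lists deviated by 0.78, 0.75 and 1.94. Results that rest on this array are given below with and without it.

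Different probes of a gene deviated alike on that array for some genes and not for others. The 2 Mcm6 probes deviated by -1.37 and -1.24, and the 4 Mcm3 probes by -0.56, -0.80, -1.04 and -0.74. The representative probe of Cdc6 lay 0.41 above the other sham arrays of 6 weeks, and the other Cdc6 probe, 228 bases away, deviated by -2.07. The 2 Birc5 probes deviated by 0.15 and -0.65, and those of Ccna2 by -0.02 and -1.31. The 4 Kif23 probes deviated by -1.92, -0.64, 0.01 and 2.06. Over the 17 genes with several probes, the probe nearest the 3′ end had a median deviation of -1.13 and the one nearest the 5′ end -0.49, and the upstream probe was the lower of the pair in 5 of 17. Some of the 5′ probes were dim and annotated to another transcript, as in Tk1 (mean level -3.22) and Bub1 (-4.77). Position was thus not separated from brightness or transcript. RNA quality was not measured in these files, and its part in this pattern was not tested.

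In bulk tissue such as this, fewer dividing cells and less of their RNA per cell cannot be told apart. With that limit, the S phase genes averaged 3.40 ± 0.26 in DMM bone and 3.15 ± 0.54 in sham bone at 6 weeks, and 2.86 ± 0.31 in DMM bone and 2.92 ± 0.21 in sham bone at 1 week (SD, n = 4 each). The mitosis genes averaged 3.11 ± 0.25 in DMM and 2.80 ± 0.63 in sham bone at 6 weeks, and 2.58 ± 0.30 in DMM and 2.63 ± 0.31 in sham bone at 1 week (SD, n = 4 each). Without sham replicate 2, sham bone at 6 weeks averaged 3.41 ± 0.08 for S phase and 3.11 ± 0.12 for mitosis (SD, n = 3). Both means were then close to those of DMM bone of 6 weeks and above those of either group of 1 week.

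**Figure D2:**
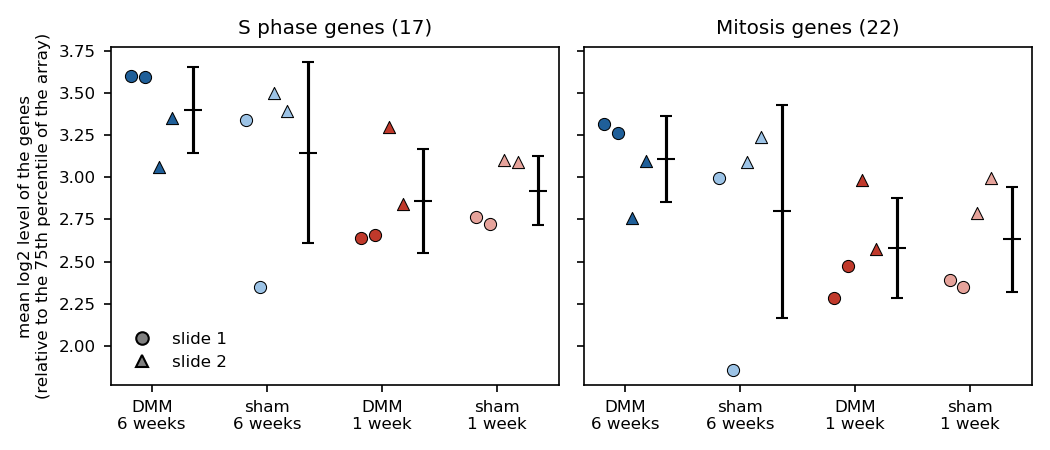
Mean log2 level of the 17 S phase genes (left) and the 22 mitosis genes (right) on each array, by group, with circles for slide 1 and triangles for slide 2; bars are the mean ± SD of 4 arrays. Sham replicate 2 at 6 weeks, at 2.35 and 1.86, lies below every other array in both panels.

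The values differed between the slides, each of which holds different mice. At 1 week the S phase mean was 2.64 and 2.66 on the DMM arrays and 2.77 and 2.72 on the sham arrays of slide 1, and 3.30 and 2.84 on the DMM arrays and 3.11 and 3.09 on the sham arrays of slide 2. At 6 weeks it was 3.60 and 3.59 on the DMM arrays and 3.34 and 2.35 on the sham arrays of slide 1, and 3.06 and 3.35 on the DMM arrays and 3.50 and 3.39 on the sham arrays of slide 2. At 1 week slide 2 was thus the higher in both surgeries, and at 6 weeks DMM arrays were higher on slide 1 and, without replicate 2, sham arrays were higher on slide 2.

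At 1 week the cell division genes differed little between DMM and sham bone. None of the 39 passed an adjusted p of 0.05 with limma (0% of all genes), none reached an unadjusted p of 0.05 (0.347% of all genes higher and 0.619% lower), and the groups overlapped for all 39 (0.372% and 0.726% of all genes did not overlap, higher and lower). The difference was above 0 for 8 of the 39, against 50.8% of all genes, with a median of -0.05 and a range from -0.20 to 0.08, against a median of 0.00 over all genes. The S phase mean differed by -0.06 and the mitosis mean by -0.05, within slides by -0.10 and -0.03 for S phase and by 0.01 and -0.11 for mitosis. The median standard error of a gene was 0.30, so differences of this size could not be told from 0 with 4 arrays a group.

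The gene with the smallest p at 1 week was Cdt1, the licensing factor that loads the MCM helicase. Its level was 2.92, 2.62, 3.30 and 2.84 on the DMM arrays and 2.81, 2.98, 3.31 and 3.40 on the sham arrays. The groups overlapped, and the difference was -0.20 ± 0.23 (SE, unadjusted p = 0.397 with limma). Next among S phase genes were E2f1 (-0.12 ± 0.19), Mcm3 (-0.12 ± 0.22) and Mcm4 (-0.14 ± 0.27), and among mitosis genes Cenpf (-0.15 ± 0.22), Aurkb (-0.17 ± 0.31), Ccna2 (-0.09 ± 0.18) and Prc1 (-0.10 ± 0.22). All 8 differences were below 0, and each was smaller than its standard error.
Mki67 had levels of 5.39, 5.24, 6.12 and 5.53 on the DMM arrays and 5.48, 5.20, 5.90 and 5.73 on the sham arrays of 1 week. Top2a had 3.58, 3.52, 4.11 and 3.73 on the DMM arrays and 3.56, 3.58, 3.84 and 4.13 on the sham arrays. Both sets of values interleave, and in both genes replicates 1 and 2 of either surgery were lower than replicates 3 and 4.

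At 6 weeks the 39 genes leaned towards DMM bone with all arrays and did not without sham replicate 2. None passed with limma at an adjusted p of 0.05 (0% of all genes), none had an unadjusted p under 0.05 (0.216% of all genes higher and 0.563% lower), and the groups overlapped for all 39 (0.135% and 0.365% of all genes did not overlap, higher and lower). With all arrays the difference was above 0 for 38 of the 39 (46.5% of all genes), with a median of 0.27, a range from -0.12 to 0.81 and a median of -0.02 over all genes. Without sham replicate 2 it was above 0 for 19 of the 39 (54.2% of all genes), with a median of -0.01 and a range from -0.23 to 0.20. On slide 1, which holds that array, the S phase mean was 0.75 and the mitosis mean 0.86 higher in DMM bone, and on slide 2 both differed by -0.24, with 2 arrays a group.

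Among S phase genes the smallest p values at 6 weeks belonged to Tyms, Pcna, Tk1 and Ccne2. Tyms, the enzyme that makes thymidylate, had levels of 3.86, 4.11, 2.98 and 3.55 on the DMM arrays and 3.63, 1.67, 3.49 and 3.55 on the sham arrays. Pcna, the clamp that holds the polymerase on DNA, had 5.77, 5.97, 4.88 and 5.50 on the DMM arrays and 5.51, 3.04, 5.48 and 5.50 on the sham arrays. In both genes 3 sham arrays lay within the DMM range and replicate 2 lay far below it. The differences with and without that array were 0.54 ± 0.38 and 0.07 for Tyms, 0.65 ± 0.48 and 0.03 for Pcna, 0.37 ± 0.29 and 0.08 for Tk1, and 0.57 ± 0.50 and -0.10 for Ccne2 (SE, limma).
Mcm2, a subunit of the helicase, had 2.82, 2.80, 2.14 and 2.51 on the DMM arrays and 2.68, 1.40, 2.54 and 2.59 on the sham arrays. E2f1 had 1.75, 1.60, 1.56 and 1.59 on the DMM arrays and 1.50, 2.17, 1.80 and 1.50 on the sham arrays. Mcm2 thus followed the pattern of Pcna, while E2f1 was highest on the same sham array.

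Among mitosis genes the smallest p values at 6 weeks belonged to Prc1, Nusap1, Cdk1 and Ccnb2. Prc1 had levels of 4.13, 4.52, 3.65 and 4.00 on the DMM arrays and 3.67, 3.34, 3.94 and 4.02 on the sham arrays, a difference of 0.33 ± 0.22 (SE, unadjusted p = 0.154 with limma). Its difference was 0.20 without sham replicate 2, 0.82 on slide 1 and -0.15 on slide 2, and its other 4 probes ran from -0.27 to 0.47. The DMM and sham arrays of Prc1 overlap, and the order of the surgeries differs between the slides.
Cdk1 had levels of 1.81, 1.73, 0.60 and 1.54 on the DMM arrays and 1.13, -1.55, 1.30 and 1.56 on the sham arrays. Its difference was 0.81 ± 0.58 with all arrays and 0.09 without sham replicate 2, and 1.98 on slide 1 against -0.36 on slide 2. Cdk1 had the largest difference of the 39 genes at 6 weeks, and the 1 low array made most of it. The differences with and without that array were 0.60 ± 0.42 and 0.04 for Nusap1, a spindle protein, and 0.59 ± 0.43 and 0.02 for Ccnb2, a B-type cyclin (SE, limma).
Ccnb1 had 3.51, 3.35, 2.85 and 3.11 on the DMM arrays and 3.01, 1.97, 3.21 and 3.16 on the sham arrays. Mki67 had 6.49, 6.10, 5.85 and 6.20 on the DMM arrays and 6.13, 4.72, 6.22 and 6.36 on the sham arrays. Top2a had 4.55, 4.45, 3.78 and 4.16 on the DMM arrays and 4.16, 2.39, 4.24 and 4.47 on the sham arrays. In these 3 genes too the DMM and sham arrays interleave except for sham replicate 2.

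**Figure D3:**
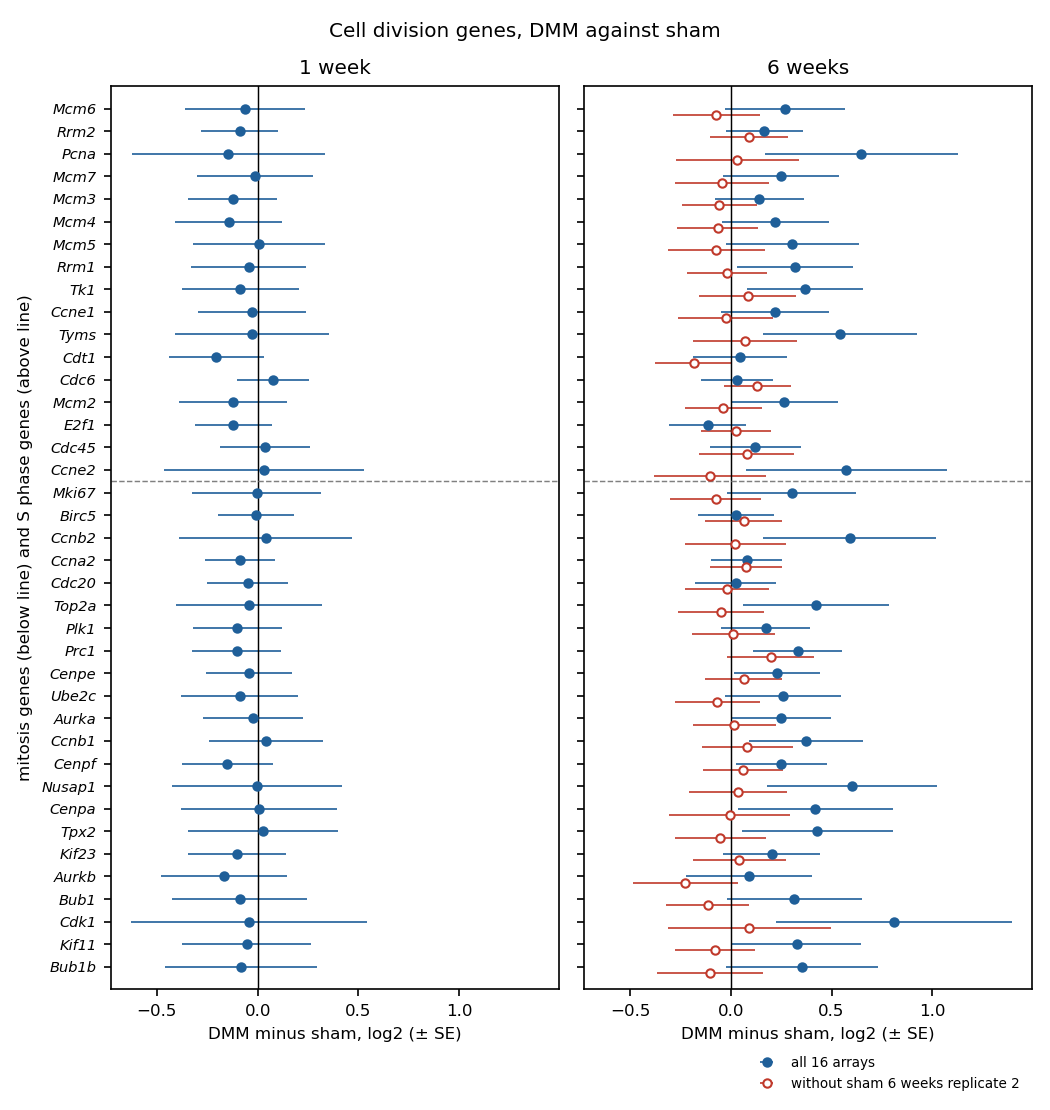
DMM minus sham for each of the 39 genes (log2 difference, bars are the SE) at 1 week (left) and 6 weeks (right); filled points use all 16 arrays and open red points leave out sham replicate 2 at 6 weeks. At 1 week the points run from -0.20 to 0.08; at 6 weeks the filled points run from -0.12 to 0.81 and the open ones from -0.23 to 0.20.

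The difference between the DMM effects of 6 and 1 week was tested as an interaction, and no member passed with limma (0% of all genes at an adjusted p of 0.05, none of the 39 at an unadjusted p of 0.05, which 0.347% of all genes passed higher and 0.336% lower). It was above 0 for 38 of the 39 (48.8% of all genes), with a median of 0.33. Without sham replicate 2 at 6 weeks it was above 0 for 26 of the 39 (55% of all genes), with a median of 0.04. The smallest p values were those of Pcna (0.79 ± 0.68), Tk1 (0.45 ± 0.41), Tyms (0.57 ± 0.54) and Mcm2 (0.39 ± 0.38), and of Prc1 (0.44 ± 0.31), Cenpf (0.40 ± 0.32), Cdk1 (0.85 ± 0.83) and Nusap1 (0.60 ± 0.60).
Averaged over both times, DMM minus sham was above 0 for 34 of the 39 (48.2% of all genes), with a median of 0.11, and without that array for 12 of the 39 (53.6% of all genes), with a median of -0.03. None passed with limma (0% of all genes), and none had an unadjusted p under 0.05 (0.294% higher and 0.644% lower over all genes). The smallest p values were those of Tyms (0.26 ± 0.27), E2f1 (-0.12 ± 0.14), Ccne2 (0.30 ± 0.35) and Pcna (0.25 ± 0.34), and of Ccnb2 (0.32 ± 0.30), Ccnb1 (0.21 ± 0.20), Nusap1 (0.30 ± 0.30) and Cdk1 (0.38 ± 0.41). Only E2f1 of these 8 lay below 0.

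After DMM, all 39 genes were higher at 6 weeks than at 1 week in the mean (53.6% of all genes), by a median of 0.52 and between 0.21 and 1.14, against a median of 0.03 over all genes. None passed with limma at an adjusted p of 0.05 (0% of all genes), and 9 had an unadjusted p under 0.05, 4 for S phase and 5 for mitosis (4.91% of all genes higher and 4.79% lower). The mean of the S phase genes was 0.54 higher and that of the mitosis genes 0.53 higher, by 0.95 and 0.91 on slide 1 and by 0.14 and 0.15 on slide 2. This comparison does not contain sham replicate 2 at 6 weeks, which enters it only through the estimate of the spread. With the spread estimated from the other 15 arrays, 28 of the 39 had an unadjusted p under 0.05, 14 of each phase (7.94% of all genes higher and 6.93% lower), and none passed with limma after adjustment (0% of all genes).

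Rrm2, the regulatory subunit of ribonucleotide reductase, had the smallest p after DMM. Its level was 5.67, 6.19, 5.35 and 5.56 at 6 weeks and 4.93, 5.04, 5.44 and 4.92 at 1 week, a difference of 0.61 ± 0.19 (SE, adjusted p = 0.301 with limma). The lowest array of 6 weeks lay below the highest of 1 week, so the groups overlap by 1 array on each side. Cdc6, which loads the helicase together with Cdt1, had 2.88, 2.60, 2.56 and 2.95 at 6 weeks and 2.02, 2.51, 2.35 and 2.01 at 1 week. Cdc6 was the 1 gene of the 39 whose groups did not overlap (2.8% of all genes higher and 2.43% lower), with a difference of 0.53 ± 0.18 (adjusted p = 0.323 with limma), and its other probe differed by 0.97. Tk1 differed by 0.81 ± 0.29 (adjusted p = 0.352) and Ccne1 by 0.65 ± 0.27 (adjusted p = 0.434) in the same limma fit.
Of the mitosis genes, Prc1 had 4.13, 4.52, 3.65 and 4.00 at 6 weeks and 3.12, 3.46, 3.78 and 3.31 at 1 week, a difference of 0.66 ± 0.22 (SE, adjusted p = 0.323 with limma). Birc5, which inhibits cell death and guides the Aurora B kinase, had 6.27, 6.09, 5.55 and 5.96 at 6 weeks and 5.18, 5.41, 5.78 and 5.27 at 1 week, a difference of 0.56 ± 0.19 (adjusted p = 0.323 with limma). In both genes replicate 3 was the lowest DMM array of 6 weeks and the highest of 1 week, and the other arrays do not overlap. The limma differences were 0.51 ± 0.18 for Ccna2, 0.63 ± 0.22 for Cenpf and 0.61 ± 0.28 for Ccnb1. Mki67 differed by 0.59 ± 0.32, Pcna by 0.97 ± 0.48 and Cdk1, the largest, by 1.14 ± 0.58 (SE, limma).

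After sham surgery the same comparison depended on replicate 2 at 6 weeks. With all arrays, 35 of the 39 genes were higher at 6 weeks in the mean (55.2% of all genes), by a median of 0.18 with a range from -0.15 to 0.57, against a median of 0.04 over all genes. None passed with limma at an adjusted p of 0.05 (0% of all genes), and Cdc6 and Birc5 had an unadjusted p under 0.05 (3.43% of all genes higher and 3.72% lower). These were also the 2 genes whose groups did not overlap (2.18% of all genes higher and 3.15% lower). Without that array all 39 were higher (44.9% of all genes), by a median of 0.47. Then 21 had an unadjusted p under 0.05 (6.95% of all genes higher and 4.6% lower) and none passed with limma after adjustment (0% of all genes). With 3 sham arrays left at 6 weeks, 24 of the 39 genes did not overlap between the times, 14 for S phase and 10 for mitosis (9.69% of all genes higher and 7.67% lower).

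Cdc6 had levels of 2.43, 3.02, 2.81 and 2.61 at 6 weeks and 2.26, 2.02, 2.25 and 2.05 at 1 week after sham surgery. All 4 arrays of 6 weeks lay above all 4 of 1 week, and the difference was 0.57 ± 0.18 (SE, adjusted p = 0.594 with limma), with the other probe at 0.51. Birc5 had 5.86, 6.05, 5.84 and 6.02 at 6 weeks and 5.39, 5.14, 5.58 and 5.56 at 1 week, a difference of 0.52 ± 0.19 (adjusted p = 0.617 with limma) and 0.49 for its other probe. Both groups of Birc5 are also apart, and in both genes the representative probe was not low on replicate 2 while the other probe was. The next smallest p values were those of Rrm2 (0.35 ± 0.19), E2f1 (0.30 ± 0.19) and Ccne1 (0.40 ± 0.27), and of Ccna2 (0.34 ± 0.18), Cdc20 (0.24 ± 0.20) and Cenpf (0.23 ± 0.22).
Pcna had levels of 5.51, 3.04, 5.48 and 5.50 at 6 weeks and 4.50, 4.42, 4.73 and 5.18 at 1 week after sham surgery. Rrm2 had 5.58, 5.30, 5.75 and 5.47 at 6 weeks and 5.14, 5.04, 5.31 and 5.21 at 1 week. Cdk1 had 1.13, -1.55, 1.30 and 1.56 at 6 weeks and -0.24, -0.18, 0.56 and 1.16 at 1 week. In Pcna and Cdk1 replicate 2 at 6 weeks is below every array of 1 week, while the other 3 arrays of 6 weeks are above 3 or all 4 of them, and in Rrm2 it lies just below the highest array of 1 week.

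Averaged over both surgeries, all 39 genes had a higher mean in bone of 6 weeks than in bone of 1 week, and none of the 39 passed the test with all 16 arrays. With all 16 arrays every one of the 39 differences was above 0 (55.6% of all genes), with a median of 0.36, a range from 0.04 to 0.71 and a median of 0.04 over all genes. No member passed with limma at an adjusted p of 0.05, while 247 genes did, 181 higher (0.641%) and 66 lower (0.234%), and 10 of the 39 had an unadjusted p under 0.05, 5 of each phase (7.59% of all genes higher and 8.18% lower). The closest were Cdc6 (0.55 ± 0.13, adjusted p = 0.051), Rrm2 (0.48 ± 0.14, adjusted p = 0.093), Tk1 (0.58 ± 0.20, adjusted p = 0.164) and Ccne1 (0.52 ± 0.19, adjusted p = 0.182) for S phase in limma. For mitosis they were Birc5 (0.54 ± 0.13, adjusted p = 0.064), Ccna2 (0.42 ± 0.12, adjusted p = 0.103), Prc1 (0.44 ± 0.16, adjusted p = 0.170) and Cenpf (0.43 ± 0.16, adjusted p = 0.186) in limma. The difference was above 0 within each slide for the S phase mean (0.53 and 0.24) and the mitosis mean (0.49 and 0.21). In this comparison time after surgery and age cannot be told apart.

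Without sham replicate 2 at 6 weeks, 14 of the 39 genes were higher at 6 weeks at an adjusted p of 0.05 with limma and none was lower, against 3.4% of all genes higher (961) and 1.92% lower (541). This array was left out after its values were seen. Leaving out any other single array gave at most 2 members, Birc5 and Cdc6, without DMM replicate 3 at 1 week or without DMM replicate 3 at 6 weeks. All 39 differences were above 0 (48% of all genes), with a median of 0.51 and a range from 0.13 to 1.07, and 32 had an unadjusted p under 0.05 (12.9% of all genes higher and 10.4% lower). The S phase mean was 0.52 and the mitosis mean 0.51 higher.
Of the 17 S phase genes, 7 rose in this fit. The deoxynucleotide enzymes Tk1, Rrm1 and Rrm2 were 0.72 ± 0.16, 0.53 ± 0.14 and 0.52 ± 0.13 higher (adjusted p = 0.030, 0.041 and 0.039 with limma), the E cyclins Ccne2 and Ccne1 were 0.75 ± 0.19 and 0.64 ± 0.16 higher (adjusted p = 0.039 and 0.038 with limma), Pcna was 0.88 ± 0.21 higher and Cdc6 0.50 ± 0.11 higher (adjusted p = 0.033 and 0.031 with limma). These cover nucleotide supply, the entry cyclins, the clamp and origin licensing, and of the helicase genes none passed; Mcm7 (0.58 ± 0.16, adjusted p = 0.052 with limma) and Mcm2 (0.46 ± 0.13, adjusted p = 0.056 with limma) came closest. Thymidylate synthase, Tyms, differed by 0.60 ± 0.17 (adjusted p = 0.062 with limma).
Of the 22 mitosis genes, 7 rose as well. Ccnb2, Cdk1 and Ccnb1, the kinase that starts mitosis and its B cyclins, were 0.85 ± 0.17, 1.07 ± 0.28 and 0.59 ± 0.16 higher (adjusted p = 0.024, 0.041 and 0.043 with limma). Nusap1 was 0.83 ± 0.17 higher (adjusted p = 0.024), Mki67 0.62 ± 0.15 (adjusted p = 0.036), Cenpf 0.53 ± 0.13 (adjusted p = 0.040) and Birc5 0.52 ± 0.13 (adjusted p = 0.039 with limma). Top2a differed by 0.51 ± 0.15 (adjusted p = 0.058) and Prc1 by 0.51 ± 0.15 (adjusted p = 0.059 with limma), which did not pass. At the other end Kif23 (0.13 ± 0.16), Cdc45 (0.21 ± 0.16), E2f1 (0.23 ± 0.12) and Kif11 (0.24 ± 0.14) had the 4 smallest differences (SE, limma).

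**Figure D4:**
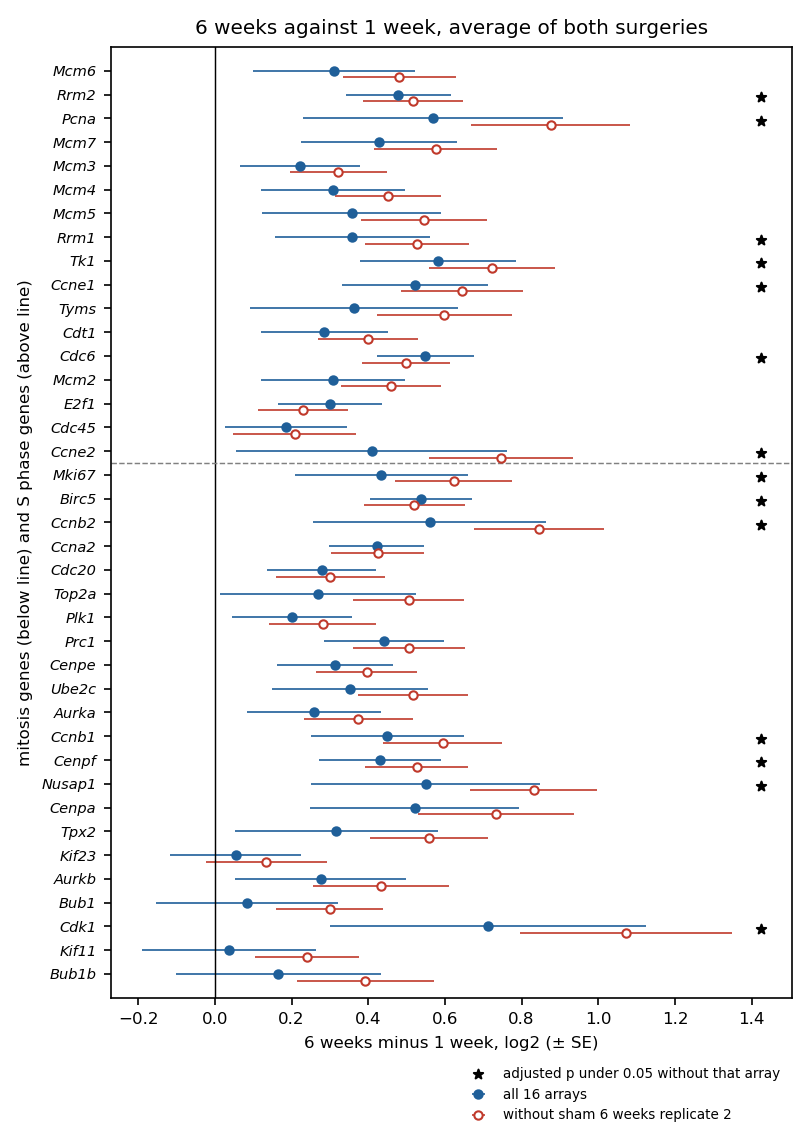
Difference of 6 weeks minus 1 week, averaged over DMM and sham, for each of the 39 genes (log2, bars are the SE); filled points use all 16 arrays, open red points leave out sham replicate 2 at 6 weeks, and stars mark the 14 genes with an adjusted p under 0.05 in the fit without that array. All points lie above 0, and the open points of 1.07 for Cdk1 and 0.88 for Pcna lie furthest to the right.

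A list of 79 other genes of the cell cycle was drawn up from textbook knowledge, with earlier results of these data known. All 79 were tested, and they also had a median above 0 for time. Between 6 weeks and 1 week, averaged over both surgeries, 70 were above 0 and 9 below (55.6% of all genes above 0), with a median of 0.30, and 1 was called (0.641% of all genes higher), the origin recognition subunit Orc1 (0.89 ± 0.20, adjusted p = 0.049 with limma). Without sham replicate 2 at 6 weeks 69 were above 0 (48% of all genes), with a median of 0.40, and 16 were called, all higher (3.4% of all genes higher). These were 8 of 21 replication genes, 5 of 33 mitosis genes and 3 of 12 pocket proteins and transcription factors, with none of 6 G1 cyclins and kinases and none of 7 CDK inhibitors. For DMM against sham none was called at either time, with 25 of 79 above 0 (50.8% of all genes) and a median of -0.05 at 1 week, and 64 of 79 above 0 (46.5% of all genes) and a median of 0.18 at 6 weeks, which became 33 of 79 (54.2% of all genes) and -0.02 without sham replicate 2.

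By role, the 2 smallest p values between 6 weeks and 1 week with all arrays belonged to Orc1 and the DNA ligase Lig1 (0.44 ± 0.13) for replication, and to the CDK1 phosphatase Cdc25b (0.98 ± 0.23, adjusted p = 0.051 with limma) and the kinetochore protein Spc25 (0.50 ± 0.14) for mitosis. They belonged to the transcription factors E2f2 (0.48 ± 0.13) and Mybl2 (0.37 ± 0.13), to the D cyclins Ccnd1 (-0.38 ± 0.13) and Ccnd2 (-0.30 ± 0.13), and to the CDK inhibitors Cdkn1a (-0.61 ± 0.21) and Cdkn1b (0.23 ± 0.09). Cyclin D1, cyclin D2 and p21 (Cdkn1a) thus lay below 0, the 2 replication and 2 mitosis genes named here lay above it, and none of these 10 genes other than Orc1 passed. No test compared the roles.
For DMM against sham at 6 weeks, the smallest p values by role were those of Gins3 (0.51 ± 0.39) and Prim1 (0.67 ± 0.53), Pttg1 (0.38 ± 0.25) and Nuf2 (0.48 ± 0.34), Rbl2 (-0.20 ± 0.15) and Foxm1 (-0.20 ± 0.19), Cdk6 (-0.36 ± 0.22) and Ccnd2 (-0.26 ± 0.18), and Cdkn2b (-1.22 ± 0.60, a dim probe well above background on 2 of 4 DMM and 4 of 4 sham arrays of 6 weeks) and Cdkn2d (0.32 ± 0.23). At 1 week they were those of Orc1 (-0.20 ± 0.28) and Dut (-0.14 ± 0.25), Kif15 (-0.27 ± 0.28) and Ndc80 (0.20 ± 0.23), Rbl2 (-0.27 ± 0.15) and E2f8 (-0.22 ± 0.21), Cdk6 (-0.26 ± 0.22) and Cdk2 (-0.23 ± 0.21), and Cdkn1a (0.52 ± 0.30) and Cdkn1b (-0.20 ± 0.13). None of these 20 differences passed with limma, and the pocket protein p130 (Rbl2) and the G1 kinase Cdk6 lay below 0 at both times.

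Over the 16 arrays the level of cell division transcripts varied most closely with the erythroid markers among the lists of blood cells. Without sham replicate 2 at 6 weeks the megakaryocyte and erythroid lists followed it alike (r = 0.88 and 0.87). The mean of the 12 erythroid markers ran from 3.93 to 4.67 on DMM and from 2.60 to 4.36 on sham arrays of 6 weeks, and from 1.84 to 3.96 on DMM and from 2.36 to 3.69 on sham arrays of 1 week. Between 6 weeks and 1 week, averaged over both surgeries, all 12 were above 0 with a median of 1.14 and 1 called, or a median of 1.38 and 11 called without sham replicate 2 at 6 weeks. In these fits 0.641% of all genes were called higher and 0.234% lower with all arrays, and 3.4% and 1.92% without that array. The 12 B cell markers were all above 0 with a median of 0.68 and none called, or 0.80 and 5 called without that array, and 5 of 6 megakaryocyte markers were above 0 with a median of 0.75 and none called, or 0.80 and 2 called. The neutrophil list had 2 of 12 above 0 and a median of -0.15, and the T and NK cell list 7 of 8 above 0 and a median of 0.23, with none called in either.
The B cell list ran from 1.42 to 1.80 on DMM and from 0.90 to 2.02 on sham arrays of 6 weeks, and from 0.27 to 1.90 on DMM and from 0.05 to 1.19 on sham arrays of 1 week. The osteoblast list ran from 4.36 to 5.29 on DMM and from 4.23 to 5.27 on sham arrays of 6 weeks, and from 4.96 to 5.75 on DMM and from 4.70 to 5.24 on sham arrays of 1 week. Of the bone lists, 7 of 8 osteoblast markers were below 0 with a median of -0.51 and none called, and all 7 osteoclast markers were below 0 with a median of -0.77 and none called. Without sham replicate 2 at 6 weeks the osteoblast median was -0.57 with none called. The osteoclast median was then -0.86 with 3 called (3.4% of all genes higher and 1.92% lower). The skeletal lists did not all lie below 0. The chondrocyte list had 7 of 8 above 0, a median of 1.25 and 1 called, or 6 of 8 above 0, a median of 1.12 and 1 called without that array. All 5 fibroblast markers were below 0 (median -0.84) and 4 of 5 osteocyte markers (median -0.20), with none called. The remaining lists are given as group means, for DMM and sham at 6 weeks and then DMM and sham at 1 week. Skeletal muscle had -2.82, -3.47, -4.21 and -4.89, with Myh4 and Ckm dim. The adipocyte list had 1.65, 2.13, 1.77 and 0.80, and the macrophage list 3.39, 3.08, 3.28 and 3.37. Endothelium had -0.03, -0.07, 0.32 and 0.14. All markers of the erythroid, B cell, megakaryocyte and osteoblast lists were well above background on the 16 arrays.

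Across the 16 arrays the mean of the 39 genes correlated with the erythroid mean at r = 0.86 (rho = 0.92), at r = 0.92 without the 2 arrays farthest from the erythroid median, and at r = 0.82 after each group's mean was taken out. Within the slides of 8 arrays it was 0.85 and 0.80. The osteoblast mean gave r = -0.71 (rho = -0.76), -0.65 without its 2 farthest arrays, -0.69 within groups, and -0.87 and -0.73 within slides. The megakaryocyte mean gave 0.68 (rho = 0.77), the B cell mean 0.49 (rho = 0.60) with 0.75 on slide 1 and 0.06 on slide 2, and the neutrophil mean 0.31 (rho = 0.30) with 0.23 and 0.22 within slides. The T and NK cell mean gave 0.58 (rho = 0.61) with 0.66 on slide 1 and -0.02 on slide 2. The macrophage mean gave 0.65 (rho = 0.43) with 0.72 and 0.01 within slides, 0.78 within groups and 0.25 without its 2 farthest arrays. For the megakaryocyte mean these were 0.65 and 0.77 within slides, 0.59 within groups and 0.60 without its 2 farthest arrays. Within groups r was 0.45 for neutrophil, 0.41 for T and NK cell and 0.32 for B cell markers. Over 15 arrays, without sham replicate 2 at 6 weeks, r was 0.87 for erythroid, 0.88 for megakaryocyte and 0.69 for T and NK cell markers. It was then 0.49 for B cell, 0.41 for macrophage, 0.20 for neutrophil and -0.75 for osteoblast markers. The skeletal lists other than osteoblast gave -0.05 (chondrocyte), -0.05 (osteocyte), -0.48 (osteoclast) and -0.28 (fibroblast). Over the 15 arrays these became 0.40, -0.42, -0.53 and -0.61. The endothelium list gave -0.33 over 16 arrays and -0.70 over 15. The adipocyte list gave 0.13 and 0.09, and the skeletal muscle list 0.32 and 0.34. These relations share their arrays and their scaling, and no p is given for them. The part of the make-up of the dissected tissue in the differences between 6 weeks and 1 week was not tested.

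**Figure D5:**
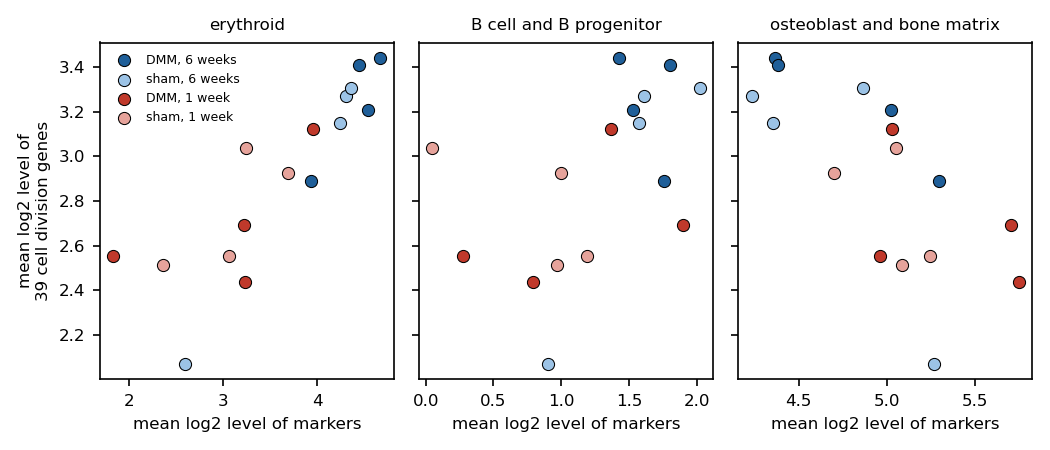
Mean log2 level of the 39 cell division genes (vertical) against the mean log2 level of the erythroid, B cell and osteoblast marker lists (horizontal), with 1 point for each of the 16 arrays coloured by group. The points climb with the erythroid list (r = 0.86) and descend with the osteoblast list (r = -0.71).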

How the data were processed

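The deposited scanner files hold, per the file headers, the processed signal intensity of each spot from Agilent Feature Extraction 10.7.3.1 on 16 1-colour arrays. The authors' deposited value table holds log2 values (limma 3.20.9, per the submitters' processing notes); its correlation with the scanner values was at least 0.993 on each array, and how it was scaled is not given in the sources used here.

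Intensities were divided by the array's 75th percentile and put on the log2 scale. Control spots and outlier flags were left out, spots of a probe were averaged, and probes well above background on at least 4 arrays were kept (43268 of 56605). Each gene was given its probe of highest mean. Groups were compared in one limma 3.58.1 fit (R 4.3.3, lmFit and eBayes, 12 residual degrees of freedom) over 28250 genes, with Benjamini-Hochberg adjustment in each of 7 comparisons and a threshold of 0.05. The median standard error was 0.30 between 2 groups, 0.42 for the interaction and 0.21 for the averages; the number of arrays limits this precision. Scripts were tested on simulated data. The members and lists were chosen with earlier results of these data known. The text names all 39 genes, per comparison those past the threshold and the 4 of each phase with the smallest p, and for the other cell cycle genes the 2 of each role with the smallest p.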

Additional observations from a re-analysis of the deposited data

Results flagged for a closer look

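In each group of 4 arrays, each gene's most extreme array was set against the other 3 by Dixon's test, which chance alone passes in about 1 in 20 groups. Of 156 groups tested over the 39 genes, 23 had an array apart, and 19 of these were low values on 1 array, sham replicate 2 at 6 weeks. Its values among S phase genes were 1.40 for Mcm2, 3.10 for Mcm4, 2.54 for Mcm5, 4.43 for Mcm6, 3.04 for Pcna, 1.67 for Tyms, 2.51 for Rrm1 and 2.74 for Tk1. The mean of the 17 S phase genes was also apart, at 2.35 against 3.34 to 3.50 on the other sham arrays of 6 weeks. Its values among the kinase and cyclin genes were -1.55 for Cdk1, 1.97 for Ccnb1, 2.56 for Ccnb2 and 0.037 for Aurkb, and among chromosome and centromere genes 4.72 for Mki67, 2.39 for Top2a and 0.79 for Cenpa. For the spindle and checkpoint genes and the anaphase gene they were 0.67 for Nusap1, -0.94 for Kif11, -0.71 for Bub1 and 2.59 for Ube2c.

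The other 4 were high values. DMM replicate 1 at 6 weeks had 3.62 for Cdt1, against 3.20 to 3.26 on the other DMM arrays of 6 weeks, and 4.22 for Plk1, against 3.78 to 3.84. DMM replicate 3 at 1 week had 2.47 for Cenpf, against 1.98 to 2.00 on the other DMM arrays of 1 week. Sham replicate 3 at 1 week had 1.70 for E2f1, against 1.33 to 1.38 on the other sham arrays of 1 week. That number, 4 of 156, is within what chance gives.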

How the results depend on the processing

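No paired analysis was possible because no label ties a sham joint to a DMM joint; replicates 1 and 2 share slide 1 and replicates 3 and 4 slide 2, which the slide block below takes up. No member passed in any of the 4 comparisons of DMM with sham, nor in 6 weeks against 1 week within 1 surgery, under any setting run. For 6 weeks against 1 week averaged over both surgeries, the 247 genes became 408 with normexp background, 451 with probes well above background on all 16 arrays, 645 with the slide as a block, and 0 with median centring, without the filter on dim probes, or on slide 1 or slide 2 alone; the members past the threshold, 0 in the main analysis, were 1 with normexp (Cdc6), 2 on the all-array filter (Cdc6 and Birc5) and 1 with the slide block (Cdc6). Leaving out each array in turn gave 0 to 1502 genes and 0 to 14 members, with 2 members (Birc5 and Cdc6) without DMM replicate 3 at 1 week or at 6 weeks. Settings chosen after seeing the data left out sham replicate 2 at 6 weeks together with a slide block, the mean over all probes or the authors' deposited value table, and gave 1841, 1664 and 1643 genes and 18, 17 and 18 members. Leave-one-out counts of genes ran from 0 to 27 for 6 weeks against 1 week after DMM, and from 0 to 1 after sham and for DMM against sham at 6 weeks.

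Leaving out each array moved the S phase mean difference of DMM against sham between -0.21 and 0.01 at 1 week and between -0.01 and 0.38 at 6 weeks, and the mitosis mean between -0.19 and 0.07 and between -0.00 and 0.46. The interaction ran from 0.05 to 0.47 (S phase) and 0.05 to 0.51 (mitosis), and the average over times from -0.04 to 0.16 and from -0.03 to 0.20. For 6 weeks against 1 week the ranges were 0.47 to 0.69 and 0.43 to 0.67 after DMM, 0.11 to 0.49 and 0.02 to 0.48 after sham, and 0.33 to 0.52 and 0.27 to 0.51 averaged. On slide 1 alone the S phase and mitosis means differed by 0.75 and 0.86 for DMM against sham at 6 weeks, 0.85 and 0.85 for the interaction, and 0.95 and 0.91 for time after DMM; on slide 2 alone by -0.24 and -0.24, -0.21 and -0.13, and 0.14 and 0.15. The cause of these changes was not tested.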
